A study of Mus musculus with 4 samples.

Results

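The 8 genes described here encode 5 caspases (Casp2, Casp6, Casp8, Casp9 and Casp12) and 3 proteins that drive caspase activation once mitochondria are breached (Apaf1, Cycs and Diablo). They were taken by gene name from a table of 55820 loci measured by RNA sequencing of whole testes of C57BL/6J mice at P10 (postnatal day 10). The table held 2 control libraries and 2 Mps1sKO libraries. In Mps1sKO mice a Stra8-Cre transgene, active in germ cells from early spermatogonia onward, removes floxed exons of Mps1, a kinase gene listed under its symbol Ttk, so that the Sertoli, Leydig and other somatic cells of the testis keep it. The control group is labelled only as control, with no statement of its floxed alleles or Cre, and the sources used here do not say if a library stands for 1 animal. If libraries shared an animal, p-values measure only technical spread. The study followed the fate of germ cells that lose Mps1, cell death among the outcomes, and the comparison here asks whether transcripts of the caspase machinery differed between the genotypes.

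Caspases are cysteine proteases that wait in cells as inactive precursors. In the mitochondrial route, cytochrome c (Cycs) leaves the mitochondria and binds APAF1, which assembles into a wheel-shaped platform, the apoptosome, where caspase-9 is activated and in turn cuts executioner caspases. Caspase-6 is an executioner that is processed further down this route. DIABLO (also called SMAC) leaves with cytochrome c and relieves the block that XIAP and related proteins place on caspases, while caspase-8 starts the separate route from death receptors and caspase-2 is activated on a platform built with PIDD1 and CRADD. Because activation takes place by cleavage and assembly, a transcript level tells how much template for these proteins is present and not how much active caspase.

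The coding sequence around the catalytic cysteine is shown for the 5 caspases, since this is the stretch that makes them proteases and that the family shares. The reading frame of the annotated transcript was translated, and the cysteine that follows glutamine and alanine was located. Each line gives 33 bases of the coding strand, 5′ to 3′, with the codon of that cysteine in capitals.
Casp2: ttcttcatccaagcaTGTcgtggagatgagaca
Casp6: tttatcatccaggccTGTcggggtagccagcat
Casp8: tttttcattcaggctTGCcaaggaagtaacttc
Casp9: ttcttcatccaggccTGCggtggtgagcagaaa
Casp12: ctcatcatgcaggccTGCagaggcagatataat
All 5 genes lie on the plus strand of GRCm38. The cysteine is encoded by codon 320 of 452 in Casp2-201, 146 of 276 in Casp6-201, 382 of 500 in Casp8-203, 325 of 454 in Casp9-201 and 298 of 419 in Casp12-201. Of the 5 windows, 4 run over an exon junction: exons 8 and 9 of 11 in Casp2, exons 5 and 6 of 7 in Casp6, exons 6 and 7 of 9 in Casp9, and exons 7 and 8 of 11 in Casp12. The window of Casp8 lies within exon 9 of 10, at chr1:58844604-58844636. Over the 10 pairs of windows, between 17 and 25 of the 33 bases were identical, the most between Casp2 and Casp9. No other annotated gene matched a transcript of these 5 caspases over at least 150 bases with at least 95% identity.

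Cytochrome c is different in this respect. The 315 coding bases of Cycs recur without a single difference in Gm10053, which lies on chromosome 19, has its own row in the table and is annotated as protein coding. Testis also has its own cytochrome c gene, Cyct, whose product replaces the somatic form as germ cells mature. The first 60 coding bases of both are shown, because Cycs shares them with Gm10053 while Cyct does not. The capitals in Cyct mark the 8 bases that differ from Cycs.
Cycs: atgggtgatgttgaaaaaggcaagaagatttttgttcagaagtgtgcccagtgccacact
Cyct: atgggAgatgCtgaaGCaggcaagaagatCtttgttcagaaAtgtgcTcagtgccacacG
The stretch of Cycs lies on the minus strand at chr6:50565601-50565660 and that of Cyct on the minus strand at chr2:76356189-76356248, both in GRCm38. Gm10053 has the letters of the Cycs line, on the plus strand at chr19:24875753-24875812. Over the whole coding sequence Cyct differed from Cycs at 75 of 315 bases, an identity of 76.2%.

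Transcripts of all 8 genes were present in every library. No member differed between the genotypes by edgeR's quasi-likelihood test adjusted over all 20561 tested loci. The means of the Mps1sKO libraries lay between 87.6% (Casp12) and 112% (Casp9) of the control means, and the fitted log2 fold changes ran from −0.19 to 0.17 with a median of 0.027, beside a median of 0.00027 over all tested loci. The adjusted p-values of the members were between 0.609 and 0.976. None of the 8 had an unadjusted edgeR p under 0.05 either, nor with DESeq2 or limma-voom. The background was 0.0292% of tested loci (6 of 20561) at an adjusted p under 0.05, and 9.3% at an unadjusted p under 0.05, of which 5.37% were lower and 3.92% were higher in Mps1sKO. For 4 of the 8 members the groups did not overlap, with 2 lower and 2 higher in Mps1sKO. The same held for 41.4% of all tested loci (21.1% lower and 20.3% higher), so the share among the members was near the background. With 2 libraries a group, an exact two-sided permutation test of a single gene cannot go below p = 0.333.

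**Figure D1:**
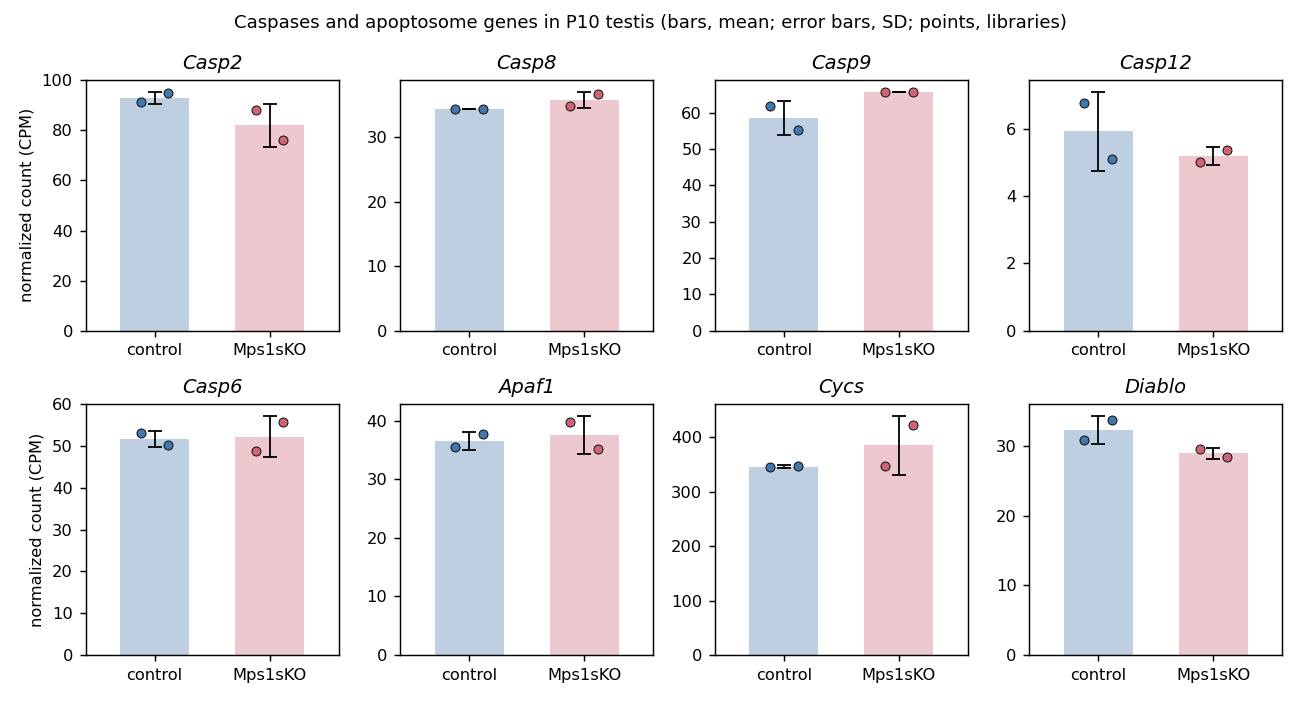
Normalized counts (CPM, counts scaled to a common library size with TMM, vertical axes from 0) of the 8 genes in control and Mps1sKO testes at P10. Bars are group means, error bars the SD of 2 libraries and points the libraries. The groups stand apart for Casp2 and Diablo (lower in Mps1sKO) and for Casp8 and Casp9 (higher), and the high mean of Cycs comes from Mps1sKO library 2 at 424.

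The total counts per library were between 23311689 and 28607746. The members had between 116 counts (Casp12, Mps1sKO library 1) and 11349 counts (Cycs, Mps1sKO library 2), so counting error was small for all but Casp12. Values below are CPM, counts scaled to a common library size with TMM, a normalization for library composition, with the control libraries 1 and 2 first. The targeted gene Ttk was at 27.9 and 32.6 CPM in the controls and 13.0 and 12.2 CPM in Mps1sKO. Its counts cover the whole gene, exons outside the deletion included. This fell to 41.7% of control (log2 fold change −1.26 ± 0.13 SE, edgeR adjusted p = 0.0461), in the direction of the genotype labels, although the adjusted p was above 0.05 in several other fits.

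Markers of germ cells moved with the genotype in the same libraries, in lists chosen with earlier results of these data known. Of all 20561 tested loci, 10268 had a log2 fold change below 0. At an unadjusted edgeR p under 0.05, 5.37% of these loci were lower and 3.92% higher in Mps1sKO. All 12 germ cell markers were lower in Mps1sKO, 11 of them at an unadjusted edgeR p under 0.05 and none at an adjusted one, and their summed level was 1792 and 2140 CPM in the controls against 1638 and 1255 CPM in Mps1sKO. All 18 meiotic prophase markers were lower too (15 at an unadjusted p under 0.05), with sums of 743 and 961 CPM against 627 and 521 CPM. Ddx4, a helicase of germ cells, was at 196 and 221 CPM against 175 and 139 CPM. The synaptonemal complex gene Sycp3 was at 31.7 and 39.7 CPM against 24.9 and 24.5 CPM. Of 13 tested Sertoli cell markers, 11 were higher, 3 of them at an unadjusted p under 0.05, with sums of 7094 and 7197 CPM against 8894 and 8583 CPM. The Sertoli transcription factor gene Sox9 was at 156 and 123 CPM against 153 and 182 CPM, and Cyp11a1, which starts steroid synthesis in Leydig cells, was at 125 and 123 CPM against 131 and 156 CPM. All 6 markers of differentiating spermatogonia were lower as well (5 at an unadjusted p under 0.05, median log2 fold change −0.51). Of 12 markers of undifferentiated spermatogonia, 7 were lower (5 at an unadjusted edgeR p under 0.05) and 5 higher, with a median of −0.17. Of 7 Leydig cell markers, 5 were higher and 2 lower, none at an unadjusted edgeR p under 0.05, with a median of 0.18. Their sums overlapped between the groups, at 724 and 729 CPM in the controls against 785 and 672 CPM. The medians of the other lists were −0.10 for peritubular myoid cells, −0.026 for macrophages, 0.062 for endothelial cells and 0.077 for red blood cells. Lymphocyte markers summed to no more than 4.10 CPM in any library, and no marker list had a member at 0 in every library. Fewer cells of a type and less RNA per cell cannot be told apart in whole testes, and the part of this shift in the values of the caspase genes was not tested.

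Between genes, levels were compared as the deposited FPKM values, which divide by gene length. That length counts the exon bases of all annotated transcripts of a gene together. For Diablo it was 6166 bases over 9 transcripts, and for Casp2 7057 bases over 10 transcripts, of which 1 is protein coding. The order and ratios below depend on these lengths, and which transcripts were expressed was not tested. Cycs stood far above the rest at 101 ± 0.760 FPKM in control and 113 ± 16.02 FPKM in Mps1sKO testes (mean ± SD, n = 2 each, as for the levels that follow). Next came a tight group of 3 initiator caspases. Casp2 was at 13.1 ± 0.367 FPKM in control and 11.6 ± 1.19 in Mps1sKO, Casp8 at 11.8 ± 0.0129 and 12.3 ± 0.467, and Casp9 at 11.2 ± 0.872 and 12.6 ± 0.0277. The ranges of Casp2 and Casp8 overlapped over the 4 libraries, and so did those of Casp8 and Casp9, so these 3 have no order beyond their spread. Casp6 followed at 9.18 ± 0.335 and 9.32 ± 0.901 FPKM, then Diablo at 5.20 ± 0.328 and 4.68 ± 0.123, and Apaf1 at 4.03 ± 0.174 and 4.15 ± 0.352. Casp12 was lowest at 1.53 ± 0.301 and 1.35 ± 0.0701 FPKM. From Casp9 downward no neighbours in the order overlapped, and in every library Cycs exceeded Casp2, the next gene, with a ratio of the means of 8.67. Casp9 thus had a level per length about 3 times that of Apaf1, its platform, in the controls (2.78 ± 0.337) and in Mps1sKO (3.05 ± 0.266).

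**Figure D2:**
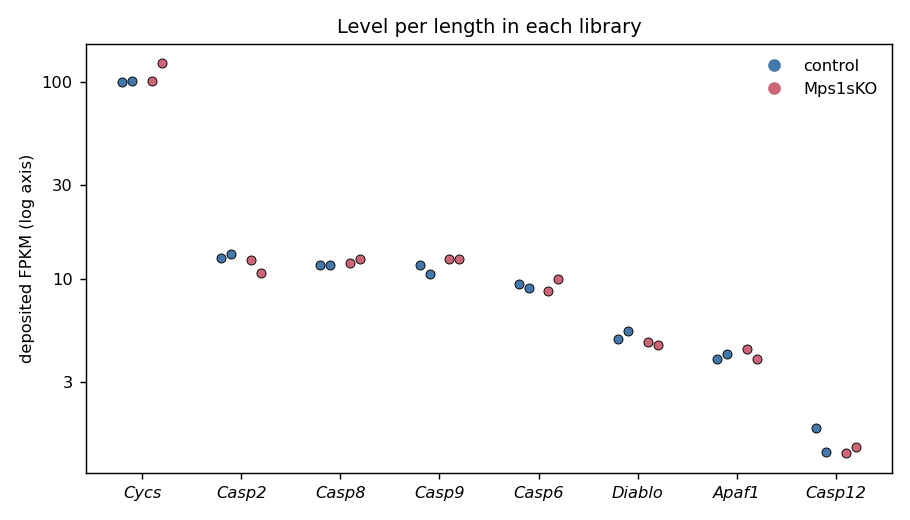
Deposited FPKM values (log axis) of the 8 genes in order of their mean, with 1 point per library and control libraries to the left of Mps1sKO libraries. Cycs lies between 100.5 and 124 FPKM, Casp2, Casp8 and Casp9 overlap between 10.6 and 13.3 FPKM, and Casp12 reaches at most 1.74 FPKM.

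Among the initiator caspases, Casp2 (chr6:42264985-42282508, plus strand) was measured at 91.3 and 94.8 CPM in control and 88.1 and 76.0 CPM in Mps1sKO testes. Both Mps1sKO libraries were below both controls, but the gap was mostly that of library 2, and the Mps1sKO libraries differed more from each other than library 1 did from either control. The log2 fold change was −0.18 ± 0.10 SE (edgeR adjusted p = 0.609), with a 95% interval from 74.8% to 104% of control. Without Mps1sKO library 1 it was −0.29 with an unadjusted edgeR p of 0.026, and without Mps1sKO library 2 it was −0.078.

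Casp9 (chr4:141793612-141815976, plus strand), the caspase of the apoptosome, was at 61.8 and 55.2 CPM in control and 65.8 and 65.8 CPM in Mps1sKO. The Mps1sKO libraries were equal to 3 digits and lay above both controls, which were themselves 1.12-fold apart. The log2 fold change of 0.17 ± 0.097 SE did not pass the test (edgeR adjusted p = 0.616), and its 95% interval ran from 96.2% to 131% of control. Without control library 2 it was 0.088, and without control library 1 it was 0.25. Casp9 shares 94 of 5197 exon bases with Cela2a and Ctrc, pancreatic-type protease genes on the opposite strand. Cela2a had 90, 95, 73 and 59 counts and Ctrc 11, 0, 3 and 2 counts in control 1 and 2 and Mps1sKO 1 and 2, against 1524 to 1763 counts of Casp9. Whether strand was used in counting is not given in the sources used here, so reads of the shared bases cannot be told apart.

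Casp8 (chr1:58795374-58847503, plus strand), which starts the death receptor route, was at 34.4 and 34.4 CPM in control and 34.8 and 36.6 CPM in Mps1sKO. The groups stood apart by the narrowest of margins. The log2 fold change was 0.056 ± 0.097 SE (edgeR adjusted p = 0.881), with a 95% interval from 89.0% to 122% of control. It was 0.093 without Mps1sKO library 1 and 0.020 without Mps1sKO library 2.

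Casp12 (chr9:5345430-5373032, plus strand) belongs to the inflammatory branch of the family and is best known for its link to stress of the endoplasmic reticulum. It was at 6.76 and 5.10 CPM in control and 5.01 and 5.37 CPM in Mps1sKO, where control library 1 alone was high and the groups overlapped. The log2 fold change of −0.19 ± 0.20 SE (edgeR adjusted p = 0.786) turned to 0.025 without control library 1 and was −0.38 without control library 2. Its 95% interval, from 63.9% to 120.4% of control, was the widest of the 8 genes. On chromosome 9 its neighbours are Casp4 (chr9:5308828-5336783) and Casp1 (chr9:5298517-5307265), 2 other inflammatory caspases. Casp1 was measured at no more than 0.832 CPM and Casp4 at no more than 0.780 CPM in any library, so that per length Casp12 (1.44 FPKM on average) exceeded both Casp1 (0.508 FPKM) and Casp4 (0.149 FPKM).

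Casp6 (chr3:129901425-129914103, plus strand), the executioner among the 8, was at 53.0 and 50.2 CPM in control and 48.7 and 55.7 CPM in Mps1sKO. The Mps1sKO libraries enclosed both controls. Its log2 fold change was 0.017 ± 0.10 SE (edgeR adjusted p = 0.976, 95% interval 85.6% to 119.6% of control), and it fell below 0 when the counts were scaled by library size only.

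Of the apoptosome proper, Apaf1 (chr10:90989311-91082770, minus strand) was at 35.5 and 37.7 CPM in control and 39.9 and 35.3 CPM in Mps1sKO. The libraries of the groups interleaved, with Mps1sKO library 1 the highest and library 2 the lowest of the 4. Its log2 fold change was 0.036 ± 0.11 SE (edgeR adjusted p = 0.937, 95% interval 86.4% to 122% of control), and it changed sign when control library 1 (−0.0070) or Mps1sKO library 1 (−0.054) was left out. The gene starts 169 bases from the start of Ikbip, which runs in the opposite direction and whose exons are not shared. A processed pseudogene, Gm30285, matches 163 bases of an Apaf1 transcript and had 0, 0, 0 and 3 counts.

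Cycs (chr6:50562563-50566538, minus strand) was at 345, 348, 347 and 424 CPM in control 1, control 2, Mps1sKO 1 and Mps1sKO 2. The first 3 libraries were within 1% of each other, and Mps1sKO library 2 alone was high. The log2 fold change of 0.15 ± 0.11 SE (edgeR adjusted p = 0.678, 95% interval 93.1% to 133% of control) therefore rested on that library, and was 0.0038 without it and 0.29 without Mps1sKO library 1, where its unadjusted edgeR p was 0.013.

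Gm10053, with the same coding sequence, was counted 1082, 1188, 918 and 1319 times in the order control 1, control 2, Mps1sKO 1 and Mps1sKO 2. This was 11.6%, 11.8%, 11.4% and 11.6% of the counts given to Cycs. The ratio was thus nearly fixed over the libraries, the high Mps1sKO library 2 included. A match of 946 bases at 99.9% identity joins the transcripts of both genes, out of 3404 exon bases of Cycs. Whether the Gm10053 counts come from that locus or are reads of Cycs cannot be told apart here. Of 9 loci with at least 250 bases at 90% identity to the Cycs coding sequence, 6 had a count, among them the processed pseudogenes Gm10108 (62, 53, 49 and 63 counts) and Gm13772 (11, 9, 14 and 33 counts). The 9 loci together held between 12.2% and 12.5% of the Cycs counts in each library. With the counts of these 9 loci added to those of Cycs, the log2 fold change was again 0.15.

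Cyct, the testis form, was at 8.06 and 10.8 CPM in control and 7.64 and 6.94 CPM in Mps1sKO, with both Mps1sKO libraries lower. Its log2 fold change was −0.37 ± 0.19 SE (edgeR adjusted p = 0.583, unadjusted p = 0.082). Per length the somatic gene exceeded it in all 4 libraries, at 107 FPKM against 12.7 FPKM on average. Hccs, the enzyme that attaches haem to cytochrome c, was at 66.8 and 70.9 CPM in control and 58.1 and 60.7 CPM in Mps1sKO. Its log2 fold change of −0.21 ± 0.091 SE had an unadjusted edgeR p of 0.049 and an adjusted p of 0.536.

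Diablo (chr5:123509765-123524176, minus strand) was at 30.9 and 33.7 CPM in control and 29.5 and 28.4 CPM in Mps1sKO. Both Mps1sKO libraries were below both controls, as for 21.1% of all tested loci. The log2 fold change of −0.16 ± 0.10 SE did not pass the test (edgeR adjusted p = 0.646), and the 95% interval ran from 75.6% to 106% of control. It kept its sign without each library in turn, between −0.22 without control library 1 and −0.097 without control library 2. Of its 6166 exon bases, 122 are shared with AC157931.1 on the opposite strand, which had 426, 416, 401 and 423 counts against 684 to 973 of Diablo. A further 1193 bases are shared with Gm49027 on the same strand (32, 29, 21 and 46 counts) and 1326 with B3gnt4 on the opposite strand (0 counts in every library). Reads of these stretches could be given to either locus or left out, so the level of Diablo is uncertain to that extent, as that of Cycs is through its copies.

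**Figure D3:**
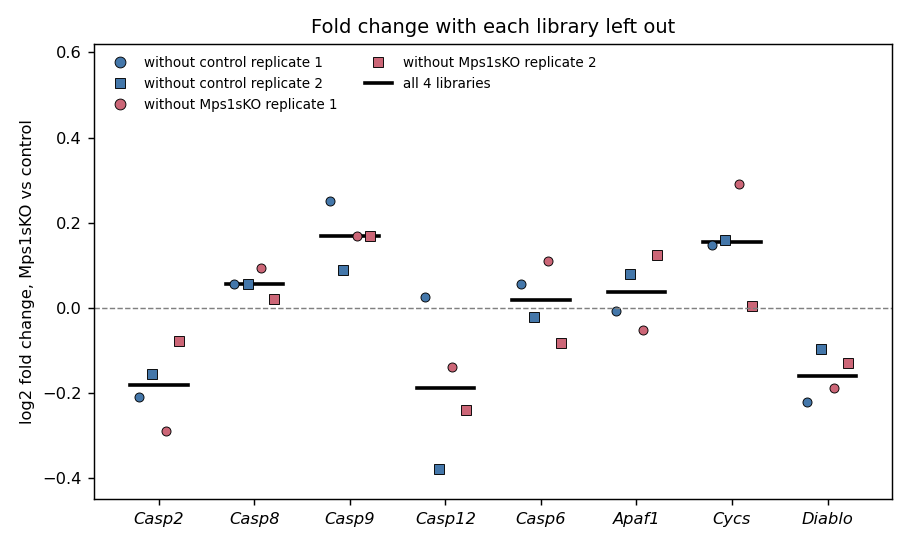
Log2 fold change of each gene, Mps1sKO against control, with all 4 libraries (black bars) and with each library left out (blue, a control left out; red, an Mps1sKO library left out). Diablo, Casp2, Casp8, Casp9 and Cycs keep their sign throughout, while Casp6, Casp12 and Apaf1 cross 0, and Cycs spans 0.0038 to 0.29 according to which Mps1sKO library is used.

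Estimates of the direct partners reached further in both directions than those of the 8 genes, from −0.37 (Cyct) to 0.37 (Cradd) on the log2 scale. The PIDDosome, the platform of caspase-2, is built from PIDD1 and the adaptor CRADD. Cradd was at 11.7 and 9.64 CPM in control and 14.4 and 13.1 CPM in Mps1sKO, a log2 fold change of 0.37 ± 0.15 SE with an unadjusted edgeR p of 0.041 (adjusted p = 0.527). Pidd1 was at 21.2 and 22.4 CPM against 19.9 and 19.9 CPM, a log2 fold change of −0.13 ± 0.11 SE. Its unadjusted edgeR p was 0.268 and its adjusted p 0.730. The estimates of the adaptor and the scaffold lay on opposite sides of 0, but neither passed at an adjusted p. The 95% interval of Pidd1 ran from 76.3% to 109% of control, so its direction is not settled.

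For caspase-8, the adaptor gene Fadd was at 18.6 and 15.3 CPM in control and 19.8 and 21.8 CPM in Mps1sKO (log2 fold change 0.30 ± 0.14 SE, with an unadjusted edgeR p of 0.066). Cflar encodes cFLIP, a catalytically inactive relative of caspase-8 that binds it and limits its activation. It was at 104 and 101 CPM against 122 and 118 CPM, a log2 fold change of 0.22 ± 0.085 SE with an unadjusted edgeR p of 0.032 and an adjusted p of 0.517. Ripk1, a kinase that joins the same complexes, was at 45.1 and 44.2 CPM against 51.4 and 52.8 CPM (log2 fold change 0.22 ± 0.090 SE, with an unadjusted edgeR p of 0.041 and an adjusted p of 0.527). For all 3 genes both Mps1sKO libraries were above both controls, as for 20.3% of all tested loci, and none passed at an adjusted p. Ripk1 was named here for its unadjusted edgeR p, so its groups were likely to stand apart.

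Around the apoptosome, Aven, whose product binds APAF1 and restrains it, was at 16.6 and 13.5 CPM in control and 12.9 and 18.2 CPM in Mps1sKO. The targets of DIABLO were Xiap, at 122 and 111 CPM against 122 and 123 CPM (log2 fold change 0.072 ± 0.091 SE), and Birc2, at 242 and 226 CPM against 260 and 249 CPM (0.12 ± 0.088 SE). Htra2, a mitochondrial protease that also binds XIAP on release, was at 29.1 and 29.4 CPM against 25.1 and 31.2 CPM (−0.055 ± 0.13 SE). Bok, a BCL2 family protein that can open the outer mitochondrial membrane, was at 97.6 and 78.6 CPM against 101 and 121 CPM, a log2 fold change of 0.33 ± 0.14 SE with an unadjusted edgeR p of 0.040 (adjusted p = 0.527).

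**Figure D4:**
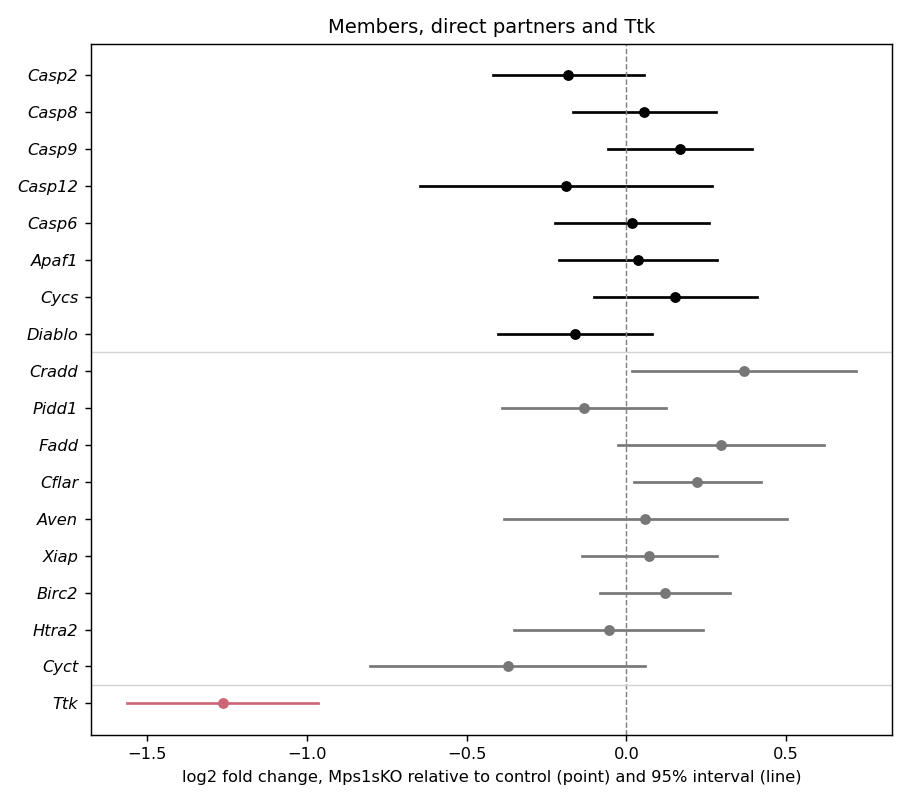
Log2 fold change of Mps1sKO relative to control (points) with its 95% interval (lines) for the 8 genes (black), 9 direct partners (grey) and the targeted gene Ttk (red). The intervals of all 8 genes include 0, those of Cradd and Cflar among the 9 partners drawn lie just above it, and that of Ttk lies far below, at −1.56 to −0.96.

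Wider lists of the pathway held 73 names in 7 lists, of which 70 had a row and 67 were tested (3 were too low to test). Of the 67, 37 were higher and 30 lower in Mps1sKO, with a median log2 fold change of 0.042. Of all 20561 tested loci, 10293 were higher and 10268 lower. None of the 67 passed at an adjusted p, and 5 had an unadjusted edgeR p under 0.05. The background was 9.3% (5.37% lower and 3.92% higher). The 5 genes were Cflar, Cradd, Ripk1 and Bok (higher) and Hccs (lower). By list, 8 of 9 adaptors and platforms of initiator caspases were higher (median 0.070, 3 at an unadjusted p under 0.05), as were 7 of 10 genes of mitochondrial release (median 0.12, 1 at an unadjusted p under 0.05). The adaptor list also holds Cflar and Aven, whose products restrain activation. Both were among the higher genes, and Cflar was among the 3. Of 8 tested inhibitors of apoptosis, 6 were higher, with a median of 0.035. Of 15 substrates of executioner caspases, 7 were higher and 8 lower (median −0.024). Of 19 genes listed as electron transfer partners of cytochrome c, 13 were lower (median −0.078, 1 at an unadjusted p under 0.05). This list also holds Cyct, a cytochrome c itself, and Hccs, the haem-attaching enzyme. Both were among the lower genes, and Hccs was the 1 with such a p. The antagonists Htra2 and Xaf1 had a median of 0.0029.

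**Figure D5:**
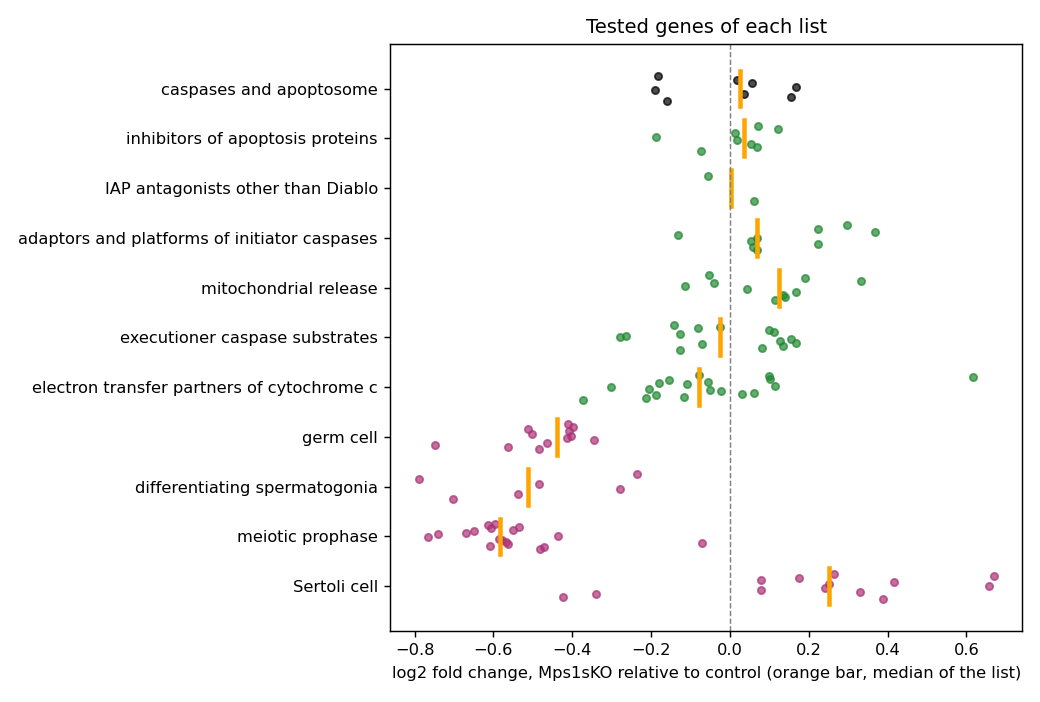
Log2 fold change of every tested gene (points) in the caspase and apoptosome set (black), 6 pathway lists (green) and 4 lists of cell type markers (purple), with the median of each list as an orange bar. The 8 genes lie between −0.19 and 0.17 with a median of 0.027, whereas the germ cell markers have a median of −0.44 and the Sertoli cell markers one of 0.25.

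In their pattern over the 4 libraries, 7 of the members are described here, and they resembled different pathway genes. Among 67 candidates, and by the distance between centred log2 CPM values, Casp2 (0.086) and Diablo (0.054) were both closest to Birc5, which encodes survivin, a member of the chromosomal passenger complex of dividing cells. Birc5 was at 35.6 and 37.3 CPM in control and 33.0 and 31.0 CPM in Mps1sKO. Apaf1 was closest to Birc3 (0.025), Casp9 to Gas2 (0.052), Casp8 to Dnm1l (0.059), Casp6 to Bcl10 (0.061) and Casp12 to Parp1 (0.19). With 4 libraries many genes share such a pattern, since between 17 (Apaf1) and 533 (Casp12) of all tested loci were closer to the member than its named gene.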

How the data were processed

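RNA-seq covered whole testes at P10, with 2 control and 2 Mps1sKO libraries grouped by genotype label. NEBNext Ultra libraries were sequenced with paired-end reads on a NovaSeq, by a sequencing company for the authors. The submitters' processing notes name HISAT2 2.0.5, featureCounts, DESeq2 1.16.1 and mm10. Strand use and multimapping are not given in the sources used here. The authors deposited raw counts per gene, FPKM values and gene lengths. Of 55536 annotated genes, 55450 had the identifier, start and end of GENCODE M21 (GRCm38), used for exons and transcripts. The library size behind the FPKM values, recomputed from the counts, was 99.1% to 101% of each total.

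The test was that of edgeR 4.0.16 (R 4.3.3) on the counts of all loci (filterByExpr, TMM, quasi-likelihood F test, two-sided, Benjamini-Hochberg adjustment). The filter kept 20561 loci, the 8 members among them. The common biological coefficient of variation was 0.106. Intervals are 95%, from the fit. No replicates agreed within sampling noise (chi-square per degree of freedom 8.49 in control and 11.6 in Mps1sKO). Transcripts were compared with BLAST 2.17.0, and sequences and overlaps read with Python 3.11.15 and pandas 2.3.3. Scripts were tested on simulated counts with known changes. Named genes are the 8 members, Ttk, direct partners, the closest pathway gene to each member, pathway genes with an unadjusted p under 0.05, overlapping loci, pseudogenes and cell type markers. The closest genes used log2 CPM with 0.5 CPM added. Some genes that this rule names are not reported here. The members and lists were chosen with earlier results of these data known. Alternatives were each library left out, annotated genes only, a block for replicate number, limma-voom (limma 3.58.1), a minimum of 10 counts per library, no filtering, scaling by library size alone, DESeq2 1.42.0 and its size factors within edgeR. In the crossed pairing, a block joined control library 1 with Mps1sKO library 2, and control library 2 with Mps1sKO library 1. This pairing and Cycs summed with similar loci were added after the data were seen.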

Additional observations from a re-analysis of the deposited data

How the results depend on the processing

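No member passed at an adjusted p under any alternative, the smallest being 0.185. Of 106 alternative values of member fold changes, 96 kept their direction and side of an unadjusted p of 0.05 and 6 changed sign: Casp6 was −0.0044 with library size only, −0.022 without control library 2 and −0.083 without Mps1sKO library 2, Casp12 was 0.025 without control library 1, and Apaf1 was −0.0070 without control library 1 and −0.054 without Mps1sKO library 1. With a library left out, Casp6 ranged from −0.083 to 0.11, Casp12 from −0.38 to 0.025 and Apaf1 from −0.054 to 0.12. The number of members with an unadjusted p under 0.05 was between 0 and 2 with a library left out (Casp2 and Cycs without Mps1sKO library 1, where 12.8% of all loci had such a p). The number with groups apart was 3 with library size only and between 4 and 7 with a library left out, beside 63.3% to 76.3% of all loci. Pathway genes with an unadjusted p under 0.05, 5 in edgeR, numbered 1 with DESeq2, 8 with no filter and between 1 and 13 with a library left out (1 without control library 2, 13 without Mps1sKO library 2). The adjusted p of Ttk rose to 0.0573 with at least 10 counts in every library (log2 fold change −1.27), 0.0745 with limma-voom (−1.26), 0.224 with the replicate block (−1.26) and 0.0509 for annotated genes only (−1.26).

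The replicate numbers are shared by the groups, but same-numbered libraries did not deviate together (r = −0.24 over tested loci). The labels do not say what the number stands for, and whether same-numbered libraries shared a preparation was not tested. With the replicate block, calls over all loci fell from 6 to 2 and from 1912 to 1039 at an unadjusted p under 0.05. Of the pathway genes 0 then had an unadjusted p under 0.05, and of the members 0. The crossed pairing gave 550 calls over all loci, and 3793 of all loci (18.4%), 2 members and 15 pathway genes at an unadjusted p under 0.05. It was chosen after the data were seen and the labels do not give it, so no conclusion is drawn from its calls. Calls over all loci were also 37 with DESeq2, 390 with no filter, 3 with at least 10 counts in every library, with limma-voom and for annotated genes only, and between 17 and 199 with a library left out. The cause of these changes was not tested. The order of levels was the same with length-scaled TMM counts. These divide by the same gene lengths as the FPKM values, so the match was nearly given and does not check the lengths. Depth bore most on Casp12, with 116 to 182 counts a library.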
